A study of Mus musculus with 14 samples.

Results

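This comparison set MHC class II (MHCII)-low alveolar macrophages taken 2 weeks after bleomycin against MHCII-low alveolar macrophages of control mice given water. It used 5 of the 14 libraries of the study: 3 from bleomycin-treated mice (replicates 1, 2 and 3) and 2 from controls (replicates 1 and 3). A gene was examined where 2 or more of these 5 libraries held 10 normalized counts or more, which left 15024 of the 43432 genes in the deposited table. All mice were 129S1 males aged 10 to 12 weeks. Treated mice were given bleomycin into the trachea, at 3 U/k as the labels write it, and control mice were given water in the same way. Cells were sorted from digested lungs as positive for SiglecF, a sialic acid-binding lectin, and for CD11c, an integrin subunit, and then by low MHCII. The gate defines the population by surface proteins alone, and no label says whether each replicate came from 1 mouse or from pooled mice. The p-values below therefore measure the spread between libraries of a group, which may be technical. This spread was estimated from all 14 libraries and not from the 5 compared alone. In such bulk samples, fewer cells of a type and less RNA per cell cannot be told apart.

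Alveolar macrophages live in the air spaces of the lung, where they take up and break down surfactant, a mixture rich in phospholipid and cholesterol. Bleomycin breaks DNA and, given into the airway, injures the epithelium and is followed by inflammation and scarring. Cells that need sterol cleave the membrane-bound transcription factor SREBP2, which then enters the nucleus and raises transcription of genes of cholesterol synthesis and uptake. Cells with a surplus of sterol form oxysterols, which activate the liver X receptors (LXR) and raise transcription of the cholesterol exporter Abca1.

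Recovered depth was 15770506, 24728341 and 64622865 reads in bleomycin replicates 1 to 3, and 88059628 and 45064662 reads in control replicates 1 and 3. Mitochondrial ribosomal RNA took 3.42%, 18.3% and 12.7% of the reads in the bleomycin libraries and 21.7% and 24.1% in the controls, so this share was lower in each treated library, and its part in the results was not tested beyond a fit with it as a covariate. Of the sort markers, the genes of SiglecF and CD11c were not called, while several MHCII genes were, as given below. Siglecf was read at 7231, 6471 and 6651 normalized counts after bleomycin and at 6461 and 7034 in controls, a log2 fold change of 0.01 ± 0.17 (SE, adjusted p = 0.99). Itgax, which encodes CD11c, was read at 44133, 37356 and 39847 against 29823 and 29931, a log2 fold change of 0.43 ± 0.17 that did not pass the threshold (adjusted p = 0.24), although each treated library lay above both controls. The alveolar macrophage regulator Pparg and the receptor Marco were likewise not called. They belong to a list of 24 resident alveolar macrophage markers, of which 4 were called higher and 1 lower, as given below.

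Of the 15024 genes, 333 (2.22%) differed at a limma adjusted p under 0.05. Expression was higher after bleomycin for 263 of them (1.75% of the genes tested) and lower for 70 (0.466%). The change was at least 2-fold for 183 increases and 63 decreases, and at least 4-fold for 95 increases and 26 decreases. All 333 had no overlap between the 3 treated and the 2 control libraries, which was also true of 37.0% of all genes tested. The median log2 fold change of all genes tested was -0.055, and 46.1% of them were above 0. Counts of list members below are to be read beside this share and the shares called higher and lower. With only 2 controls the calls leaned on each library: 77 of the 333 (73 higher and 4 lower) passed in each of the 5 fits that left out 1 library, and 136 and 126 genes were called without control replicate 1 and control replicate 3. Scaling to library totals without mitochondrial ribosomal RNA moved the median of all genes to -0.258 and called 164 genes higher and 140 lower, 53.9% higher against 79.0% with the deposited scaling, so the split between directions depended on the scaling. Called genes were mostly well expressed: the median of the mean level over the 5 libraries was 2464 normalized counts for the increases and 628 for the decreases, against 297 for all genes tested. The plot of level against fold change shows where they lie.

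**Figure D1:**
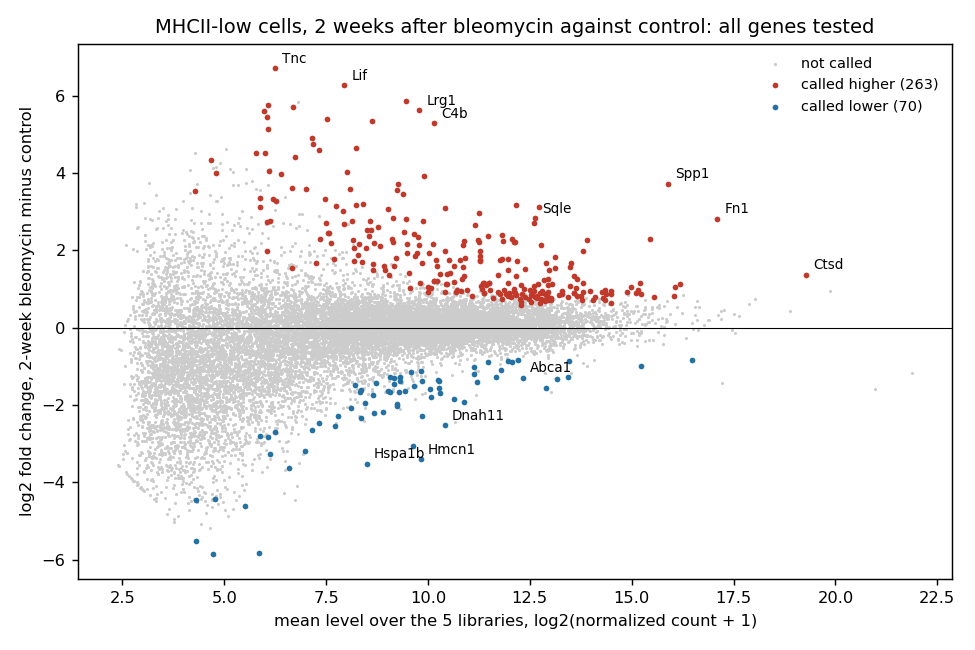
Each point is 1 of 15024 genes; the horizontal axis is the mean level over the 5 libraries as log2(normalized count + 1), and the vertical axis the log2 fold change of 2-week bleomycin over control. The 263 genes called higher (red) and 70 called lower (blue) are drawn over the genes not called (grey), which reach similar fold changes at low levels; Spp1 and Fn1 lie among the most abundant called genes.

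Leading increases were in genes read at low levels in the controls. Lrg1 (chr17:56119680-56121946, GRCm38), a secreted glycoprotein that modulates TGF-beta signalling, was read at 1477, 854 and 2006 normalized counts after bleomycin and at 35.4 and 19.8 in controls (log2 fold change 5.63 ± 0.43, adjusted p = 1.7e-07). C4b (chr17:34728380-34743882), the fourth complement component, was read at 1226, 1417 and 2960 against 53.4 and 34.4 (5.30 ± 0.45, adjusted p = 5.73e-07). C4b has a close copy beside it, C4a, and how the authors' counting treated reads shared by both is not given in the sources used here. Every treated library lay far above both controls for these 2 genes, and both increases passed in each fit that left out 1 library.

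The rule for the 15 largest increases took called genes with a mean of at least 100 normalized counts and no overlap between groups. It also named Ceacam19, Sash1, Pianp and B4galt6, with log2 fold changes of 4.66, 3.92, 4.74 and 4.42. These passed in every fit that left out 1 library. B4galt6, read at 9.7 and 4.3 normalized counts in controls, passed the filter through the treated libraries alone. B4galt6 makes lactosylceramide, and Sash1 is a scaffold protein of innate immune signalling. Lif, an interleukin-6 family cytokine, was read at 338, 462 and 398 against 25.3 and 0 (log2 fold change 6.27 ± 1.13, adjusted p = 0.00292). The treated libraries agree within 1.5-fold, while the control at 0 sets the size of the change: without control replicate 3 the adjusted p was 0.148. Fabp7, a fatty acid-binding protein with 1 control at 0, behaved likewise (201, 86.0 and 212 against 7.8 and 0, adjusted p = 0.00255, and 0.114 without control replicate 3). Fabp7 too passed the filter through the treated libraries alone. Awat1, an acyltransferase that makes wax esters, and Creg2 passed in the fit of all libraries (adjusted p = 0.0233 and 0.0291). Awat1 missed the threshold in 4 of the 5 fits that left out 1 library, all but the one without control replicate 1, and Creg2 in all 5, with adjusted p up to 0.579 and 0.325 without control replicate 3. The plot of leading genes by library sets these levels beside those of the 4-week and the MHCII-high libraries.

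**Figure D2:**
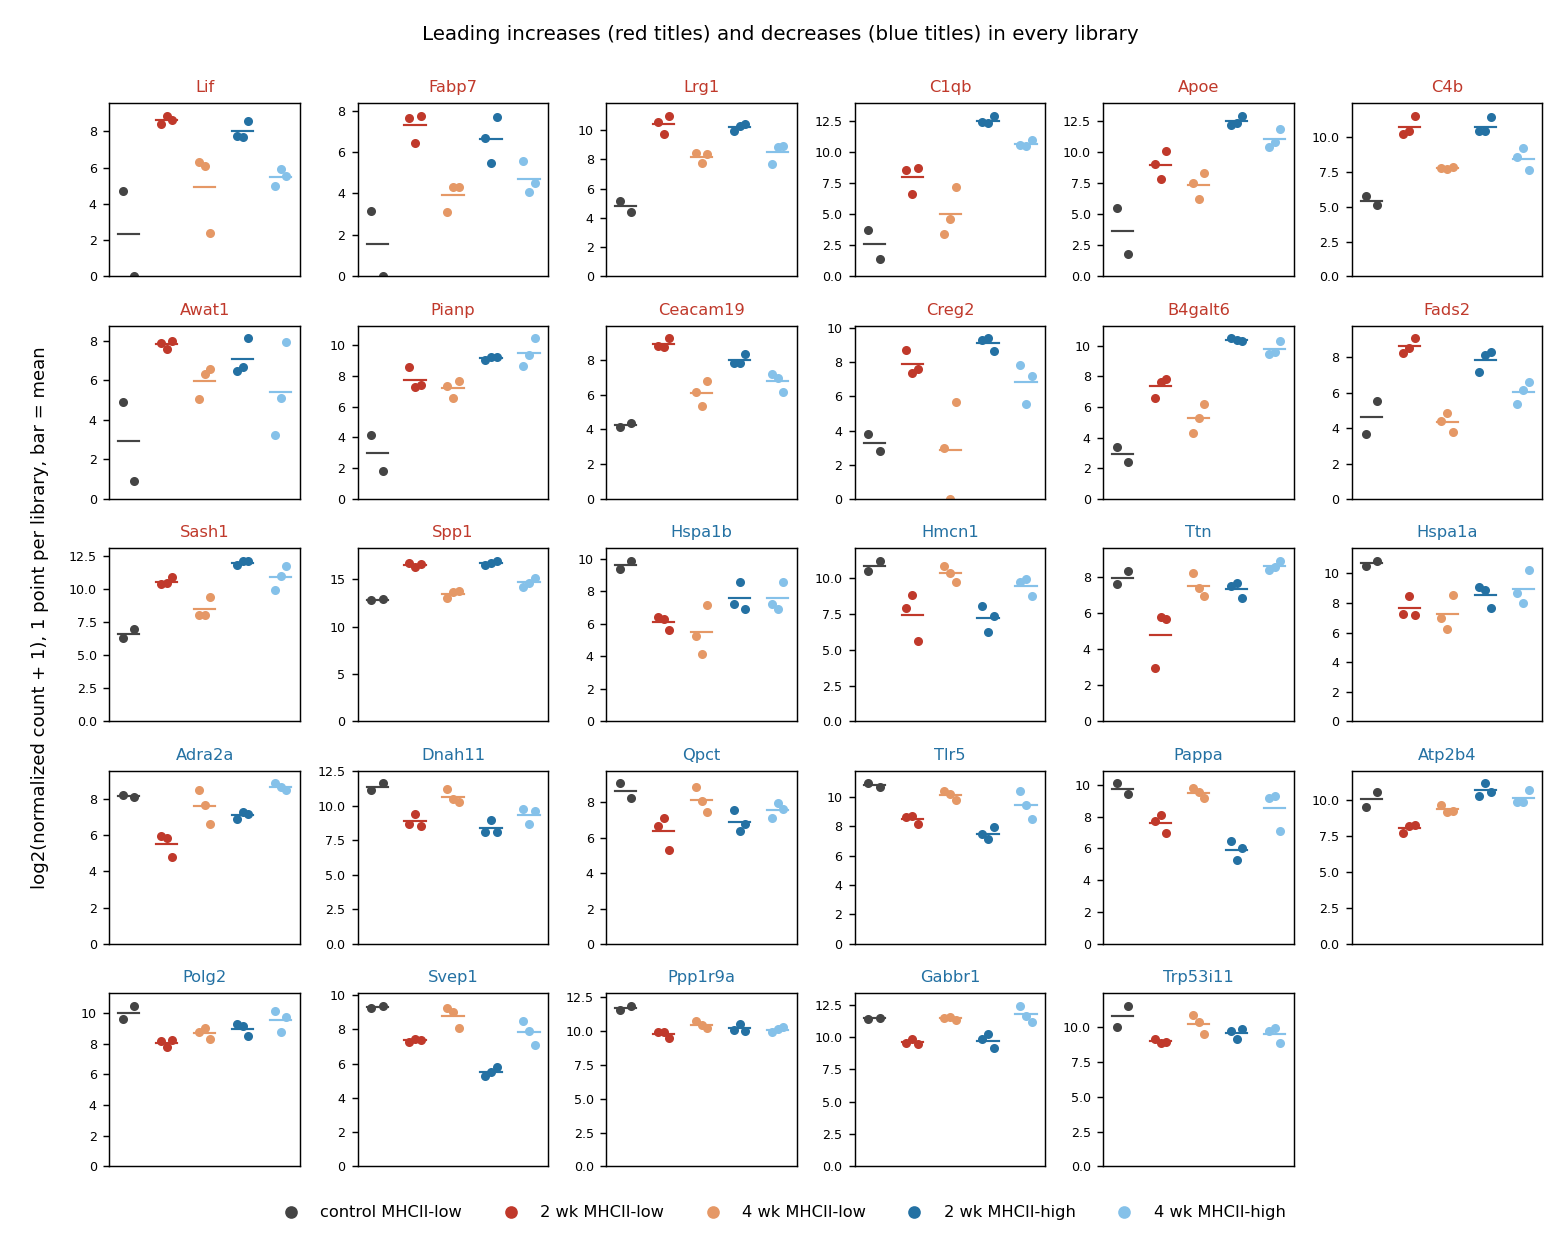
Each panel is 1 gene, each point 1 library, on a log2(normalized count + 1) axis, with the group mean as a bar; groups run control, 2-week and 4-week MHCII-low, 2-week and 4-week MHCII-high. Red titles mark 14 increases and blue titles 15 decreases. The rule that picked these genes required the 3 2-week MHCII-low libraries to lie wholly above or below both controls.

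Genes of cholesterol synthesis and uptake rose together. Of 24 listed genes, all 24 were tested, 20 were called higher and none lower, against 1.75% of all genes tested, and all 24 had a log2 fold change above 0. The list's median log2 fold change was 2.00, against -0.055 for all genes tested, and stayed between 1.85 and 2.12 when each library was left out in turn and at 1.79 under library totals. Summed over the list, the level was 87564 to 121340 normalized counts in the treated libraries and 24642 and 25363 in the controls. The called members run along the whole pathway, from the mevalonate steps through squalene to the final reductases.

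Promoter sequences are shown for 6 of these called genes, to let the letters known to be read by SREBP2 and by NF-Y, a CCAAT-binding factor, be compared between genes that moved together. Each is the 150 bases directly before the annotated start, on the gene's strand, 5′ to 3′, from the RefSeq promoter table (build GRCm38.p6). Capitals mark the sterol regulatory element core TCACNCCAC or the CCAAT box, which reads ATTGG where it lies on the other strand.
Hmgcs1, chr13:119690201-119690350, + strand: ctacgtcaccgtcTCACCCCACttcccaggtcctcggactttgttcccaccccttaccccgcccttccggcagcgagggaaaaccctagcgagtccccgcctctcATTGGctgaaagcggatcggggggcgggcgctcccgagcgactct
Idi1, chr13:8885456-8885605, + strand: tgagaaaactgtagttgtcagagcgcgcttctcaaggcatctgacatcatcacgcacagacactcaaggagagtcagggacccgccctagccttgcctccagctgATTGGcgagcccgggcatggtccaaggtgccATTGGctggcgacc
Lss, chr10:76531455-76531604, + strand: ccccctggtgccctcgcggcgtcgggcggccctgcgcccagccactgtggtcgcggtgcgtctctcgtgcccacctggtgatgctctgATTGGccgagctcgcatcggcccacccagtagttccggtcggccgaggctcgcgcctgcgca
Cyp51, chr5:4104698-4104847, - strand: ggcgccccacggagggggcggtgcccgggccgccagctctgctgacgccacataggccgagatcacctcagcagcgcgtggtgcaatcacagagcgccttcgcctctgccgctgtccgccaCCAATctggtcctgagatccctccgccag
Msmo1, chr8:64733579-64733728, - strand: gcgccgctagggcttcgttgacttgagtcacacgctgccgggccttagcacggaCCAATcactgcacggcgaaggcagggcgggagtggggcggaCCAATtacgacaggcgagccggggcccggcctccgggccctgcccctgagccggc
Sc5d, chr9:42264301-42264450, - strand: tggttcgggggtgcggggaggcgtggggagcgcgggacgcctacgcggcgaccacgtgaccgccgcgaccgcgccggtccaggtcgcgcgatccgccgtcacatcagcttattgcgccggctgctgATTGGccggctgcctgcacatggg

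The promoter table holds 17 of the 24 listed genes. Searched on both strands over 250 bases before to 50 bases after the start, CCAAT occurred in 16 of the 17. These were each of the 13 matched genes that were called higher, and Mvk, Ebp and Tm7sf2, which were not called. It occurred in 41.06% of all 27025 genes with a promoter in the table (37.41% of 32851 promoters), in 42.09% of the tested genes matched and in 49.47% of the 190 genes called higher that were matched. TCACNCCAC occurred in 1 of the 17, Hmgcs1, where it begins 137 bases before the start, and in 1.44% of all genes (1.24% of promoters). Of the matched genes it occurred in 1.38% of those tested and 2.11% of those called higher. Both are matches of letters in a window and say nothing of whether a factor was bound. Among the 7 genes without an entry are Sqle, Fdft1, Fdps and Stard4.

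At the mevalonate end of the pathway, Hmgcs1, the HMG-CoA synthase, was read at 6645, 11454 and 12621 normalized counts after bleomycin against 2332 and 2157 in controls (log2 fold change 2.14 ± 0.23, adjusted p = 1.27e-05). Mvk, mevalonate kinase, was 1 of the 4 members not called (257, 314 and 320 against 113 and 46.5, adjusted p = 0.0521), and its groups did not overlap. Pmvk, Mvd, Idi1 and Fdps, which carry mevalonate on to farnesyl diphosphate, were called higher with log2 fold changes of 2.08, 1.74, 2.20 and 2.77.

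In the sterol-specific branch, Sqle, the squalene epoxidase, was read at 9431, 8809 and 10532 against 1116 and 1624 (log2 fold change 2.83 ± 0.22, adjusted p = 1.83e-07). Cyp51, the lanosterol demethylase, was read at 8489, 9042 and 10464 against 1543 and 1305 (2.71 ± 0.26, adjusted p = 1.61e-06). Neither gene had a treated library near a control. In the same branch Fdft1, Lss, Msmo1, Nsdhl, Hsd17b7, Sc5d and Dhcr7 were called higher, with Sc5d the largest of them at 3.10. The isomerase Ebp (0.59 ± 0.41) and the reductase Tm7sf2 (0.12 ± 0.46) were not called.

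Control and transport genes of the pathway moved with the enzymes. Insig1, which holds the SREBP complex in the endoplasmic reticulum, Srebf2, which encodes SREBP2, and Stard4, a sterol carrier, had log2 fold changes of 1.78, 1.73 and 1.69 (adjusted p = 1.04e-05, 0.000695 and 7.97e-05). Scap, the SREBP escort, was not called (0.45 ± 0.25). Of the 20 calls, 15 passed in every fit that left out 1 library. Mvd and Hsd17b7 missed the threshold without control replicate 3 (adjusted p = 0.07 and 0.106), Nsdhl and Pmvk without either control library (up to 0.119 and 0.155), and Idi1 in 4 of the 5 fits (up to 0.137).

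At 2 weeks the levels of these genes were near or above those of the MHCII-high cells. For the 17 called genes plotted the 2-week MHCII-low mean was 98.6% (Idi1) to 166% (Fdft1) of the 2-week MHCII-high mean. The libraries of the study include no MHCII-high control, so a change from control in MHCII-high cells could not be measured. In MHCII-low cells at 4 weeks, the mean of the 20 called genes was 1.02 to 1.74 times the control mean, with a median of 1.39. Sqle at 4 weeks was read at 1692, 2064 and 1455, beside 9431, 8809 and 10532 at 2 weeks. The 4-week and 2-week comparisons share their 2 controls, so these values stand side by side with no test. The plot of the pathway by library shows each gene in these groups.

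**Figure D3:**
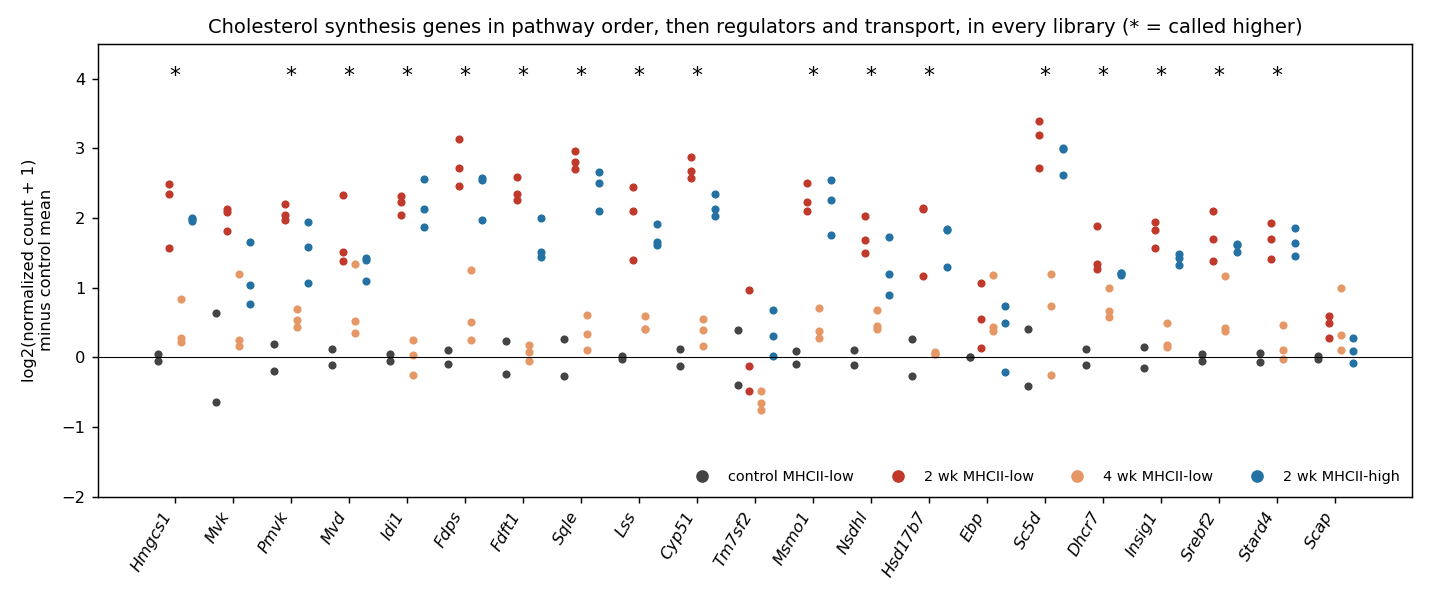
Each column is 1 of 21 of the listed genes, ordered by pathway step and then regulators and transport; points are libraries, as log2(normalized count + 1) minus the mean of the 2 control libraries, coloured by group. Asterisks mark the 17 of them called higher. As for every gene called higher in this comparison, all 3 2-week MHCII-low libraries lie above both controls.

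Fatty acid genes moved in part. Of 26 listed genes of fatty acid synthesis and lipid storage, 7 were called higher and none lower, and the median log2 fold change was 0.467. Of all genes tested, 1.75% were called higher. Fasn, the fatty acid synthase, was read at 1732, 2459 and 3924 against 629 and 534 (log2 fold change 2.14 ± 0.29, adjusted p = 0.000179). The desaturases Fads1 (2.48 ± 0.35, adjusted p = 0.000242) and Fads2 (4.03 ± 0.69, adjusted p = 0.00203), which make polyunsaturated fatty acids, were higher too, as were Scd1, Scd2, the acyl-CoA synthetase Acsl3 and the elongase Elovl1 at log2 fold changes of 2.13, 1.78, 2.75 and 0.74. Fasn and Fads1 passed in every fit that left out 1 library. The count was 3 of 26 without control replicate 1 and 4 of 26 without control replicate 3. Without control replicate 1, Fads2 had an adjusted p of 0.0857 and Scd2 of 0.0761.

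Sterol export went the other way for part of its list. Among 7 tested genes of LXR, sterol efflux and apolipoproteins, 2 were called lower and 1 higher, with a median of -0.006. The shares over all genes tested were 0.466% and 1.75%. Abca1 (chr4:53030787-53159895), which hands cholesterol to apolipoprotein A-I, was read at 3457, 3470 and 2782 normalized counts against 6444 and 9712 in controls. It fell by 1.30 ± 0.19 on the log2 scale (adjusted p = 0.000395) and passed in every fit that left out 1 library. Mylip, an LXR target that marks lipoprotein receptors for degradation, was read at 1624, 1298 and 1362 against 3578 and 3957 (-1.40 ± 0.24, adjusted p = 0.00181), and at an adjusted p of 0.0508 without control replicate 3. The exporter Abcg1 was not called (36414, 47792 and 65907 against 63386 and 67223, -0.43 ± 0.22, adjusted p = 0.428), and neither was Nr1h3, which encodes LXR-alpha (1.33 ± 0.41, adjusted p = 0.111).

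Apoe, the apolipoprotein that macrophages secrete, was the member called higher, at 539, 229 and 1140 against 44.4 and 2.6 (log2 fold change 5.35 ± 0.79, adjusted p = 0.000414). It was not called by limma voom (adjusted p = 0.105), and its mean was 10.7% of that in 2-week MHCII-high cells. Of 10 fatty acid-binding and lipid uptake genes, Fabp7, with the limit given above, was called higher, and the scavenger receptor Cd36 and the fatty acid-binding protein Fabp1 lower, at log2 fold changes of -1.33 ± 0.26 and -1.37 ± 0.34 (adjusted p = 0.00713 and 0.0348). Cd36 was read at 7196, 6769 and 3624 against 16560 and 11939, and missed the threshold without control replicate 1 (adjusted p = 0.193). Fabp1 missed it in 4 of the 5 fits that left out 1 library, with adjusted p up to 0.293.

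Spp1 and Fn1, which encode secreted matrix proteins, were abundant transcripts that rose. Of 17 tested matrix and matricellular genes, 4 were called higher and 1 lower, with a median log2 fold change of 1.17. The shares over all genes tested were 1.75% and 0.466%. Spp1 (chr5:104435118-104441050), which encodes osteopontin, was read at 105620, 79824 and 101920 normalized counts against 6964 and 7388, a log2 fold change of 3.73 ± 0.25 (adjusted p = 2.33e-08). Fn1 (chr1:71585520-71653200), fibronectin, was read at 196439, 201037 and 242793 against 27740 and 32671 (2.82 ± 0.24, adjusted p = 5.73e-07). Both passed in every fit that left out 1 library, and their means were 90.0% and 63.8% of the 2-week MHCII-high mean. Tgfbi, a TGF-beta-induced matrix protein, was 1.17 ± 0.21 higher (adjusted p = 0.0036, and 0.124 without control replicate 3).

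Tnc, tenascin-C, was read at 98.4, 226 and 50.1 normalized counts after bleomycin and had no read in either control library. Against a floor of 3 reads in the shallower control, which is 2.58 normalized counts, its mean was at least 48.4-fold higher, for counting error only. It passed the filter through the treated libraries alone, and its call (adjusted p = 0.0149) was lost in 4 of the 5 fits that left out 1 library, with adjusted p up to 0.145. The matrix gene called lower was Hmcn1, hemicentin (239, 455 and 46.8 against 1436 and 2346, -3.40 ± 0.67, adjusted p = 0.00708, and 0.155 without control replicate 3).

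Some matrix-degrading enzymes rose. Of 14 tested metalloproteinases and inhibitors, 6 were called higher, against 1.75% of all genes tested, and none lower. A log2 fold change below 0 was found for 4, and the median was 0.928. Mmp12, macrophage elastase, was read at 9596, 5917 and 5680 against 994 and 577 (log2 fold change 3.18 ± 0.33, adjusted p = 5.28e-06). Mmp19 was read at 65125, 55494 and 75693 against 10184 and 17093 (2.30 ± 0.23, adjusted p = 3.89e-06), and Mmp8, a collagenase best known from neutrophils, at 5068, 5818 and 5062 against 1384 and 913 (2.24 ± 0.22, adjusted p = 3.01e-06). Each treated library exceeded each control by more than 3-fold for these enzymes. The gelatinase Mmp2 (3.03 ± 0.48, adjusted p = 0.000859) passed every leave-one-out fit as well. Mmp14, a membrane-bound metalloproteinase, and the inhibitor Timp2 were called at 2.71 and 1.11, with adjusted p of 0.0611 and 0.17 without control replicate 1. For Mmp8, Mmp19 and Mmp2 the mean was 104% to 126% of that in 2-week MHCII-high cells, but for Mmp12 22.9% and for Mmp14 8.64%.

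Beside Mmp8, the neutrophil list (14 genes, 11 tested) had 1 more call, Cxcr2, a chemokine receptor (4784, 3460 and 4293 against 1110 and 584, log2 fold change 2.36 ± 0.42, adjusted p = 0.00259, and 0.114 without control replicate 3). The summed level of the list was 14268 to 15763 in treated and 5220 and 9376 in control libraries. The defining neutrophil genes S100a8 (226, 131 and 322 against 111 and 108) and S100a9 (101, 17.5 and 63.9 against 87.6 and 1.7) were not called and were a small part of that sum. The part of neutrophils in the 2 calls was not tested.

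Part of the lysosomal genes rose. Of 47 tested lysosomal enzymes, membrane proteins and proton pump subunits, 10 were called higher, against 1.75% of all genes tested, and none lower. The median log2 fold change was 0.533. A value above 0 was found for 44 of the 47, and for 46.1% of all genes tested. The tetraspanin Cd63 was read at 3443, 2594 and 4241 against 473 and 592 (log2 fold change 2.66 ± 0.24, adjusted p = 8.67e-07), and Acp5, tartrate-resistant acid phosphatase, at 5271, 3312 and 6088 against 1395 and 1402 (1.76 ± 0.26, adjusted p = 0.000462). These were the 2 that passed every fit with 1 library left out. Of the others, Atp6v1a, Man2b1, Cd68, Lgmn, Gaa, Atp6v0a1 and Npc2 had log2 fold changes of 0.71 to 0.91. Counts of calls moved with the setting: 2 of 47 without control replicate 1, 5 without control replicate 3, 4 without bleomycin replicate 3, 4 under library totals and 20 by DESeq2.

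Cathepsins, the lysosomal proteases, gave 6 increases among 15 tested, with 14 of 15 above 0 and a median of 0.806. Over all genes tested, 1.75% were called higher, 0.466% were called lower and 46.1% were above 0. Ctsk, which degrades collagen, was read at 23987, 16223 and 20683 against 5705 and 4564 (log2 fold change 1.97 ± 0.19, adjusted p = 1.61e-06). Ctsb, Ctsd, Ctsl, Ctss and the inhibitor Cstb were called at 1.05, 1.38, 1.33, 0.81 and 1.26, and each missed the threshold in at least 1 leave-one-out fit, with adjusted p up to 0.521 for Ctsd without control replicate 1. The count was 1 of 15 without control replicate 1, 3 without control replicate 3 and 1 with the share of mitochondrial ribosomal RNA as a covariate. A list of genes known from lipid-loaded macrophages of the Trem2 type shares several of these genes. Of its 17 members, 7 were called higher (Spp1, Cd63, Gpnmb, Ctsb, Ctsl, Ctsd and Tyrobp) and 1 lower (Cd36), while Trem2 itself (3246, 2444 and 3476 against 1906 and 1736, 0.73 ± 0.23) was not called. Gpnmb was read at 113845, 81060 and 93319 against 40420 and 47150 (1.12 ± 0.19, adjusted p = 0.00143).

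Although the cells were gated as MHCII-low, transcripts of several MHCII genes were higher after bleomycin. Of 9 tested MHCII presentation genes, 5 were called higher, against 1.75% of all genes tested, and none lower, with a median of 1.54. H2-Ab1 was read at 897, 422 and 1276 against 99.7 and 118 (log2 fold change 2.84 ± 0.35, adjusted p = 5.5e-05), H2-Aa at 917, 503 and 1810 against 128 and 137 (2.82 ± 0.37, adjusted p = 0.000153), and Cd74, the invariant chain, at 7247, 2916 and 8922 against 1013 and 1352 (2.29 ± 0.38, adjusted p = 0.00142). Bleomycin replicate 2 was the lowest treated library for all 3, and still above both controls. H2-DMb1 (1.16 ± 0.23, adjusted p = 0.00608) and Ciita, the master regulator of the class (1.54 ± 0.36, adjusted p = 0.0266), passed with all libraries. H2-DMb1 missed the threshold without control replicate 1 or 3 (up to 0.102), and Ciita without either of these or without bleomycin replicate 2 or 3 (up to 0.276). H2-Eb1 (143, 55.7 and 320 against a control mean of 21.4) was not called (adjusted p = 0.0877), nor were H2-DMa, H2-DMb2 and H2-Oa. H2-Eb2 and H2-Ob did not pass the filter.

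The promoter of H2-Aa is shown for its CCAAT letters, those of the Y box of MHCII promoters, in capitals and on the other strand (150 bases before the start, RefSeq, GRCm38.p6).
H2-Aa, chr17:34287824-34287973, - strand: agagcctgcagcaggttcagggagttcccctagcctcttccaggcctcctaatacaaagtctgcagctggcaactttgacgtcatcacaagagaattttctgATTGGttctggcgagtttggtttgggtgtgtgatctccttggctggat
All 8 of the 11 listed MHCII genes with an entry in the promoter table hold CCAAT in the window, beside the 41.06% of all genes given above. Of these 8, 2 were called higher, H2-Aa and H2-DMb1.

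Levels of 4 of the 5 called MHCII genes stayed far under those of the other gate. The 2-week MHCII-low mean was 4.13% of the 2-week MHCII-high mean for H2-Ab1, 3.37% for H2-Aa, 5.60% for Cd74 and 7.39% for Ciita, but 57.2% for H2-DMb1. Among the 263 genes called higher, 14 (5.3%) were under 10% of the MHCII-high mean, against 1.4% of all genes tested. The share was similar, 5.7%, for the 70 genes called lower. A level of 80% or more was found for 167 of the 263 (63.5%), beside 9973 of the 15024 genes tested, which is a slightly larger share. For a level of 100% or more the shares were 46.4% and 45.8%. The 3 subunits of C1q, the first component of complement, were at similar shares: 4.37% for C1qa, 4.96% for C1qb and 3.88% for C1qc. Bleomycin replicate 2 was the lowest treated library in 10 of the 14 genes, and in 78 of the 167 at 80% or more. The part of MHCII-high cells in these increases was not tested.

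All 3 C1q genes were called higher, against 1.75% of all genes tested. C1qb was read at 383, 100 and 418 against 12.1 and 1.7 (log2 fold change 5.41 ± 0.82, adjusted p = 0.000526), C1qc at 166, 60.5 and 384 against 11.3 and 12.9 (3.60 ± 0.62, adjusted p = 0.00223), and C1qa at 53.7, 25.5 and 248 against 3.1 and 0 (5.14 ± 0.92, adjusted p = 0.00281). The treated libraries spread over 4-fold to nearly 10-fold. C1qa passed the filter through the treated libraries alone and had an adjusted p of 0.104 without control replicate 3. None of the 3 was called by limma voom (adjusted p = 0.158, 0.0627 and 0.0781 for C1qa, C1qb and C1qc).

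Other complement genes varied more against the MHCII-high cells. Of 19 tested, 5 were called higher, against 1.75% of all genes tested, and none lower, with a median of 0.955. Besides C4b, C3, the central component, was read at 30753, 26876 and 28858 against 15134 and 14566 (log2 fold change 0.96 ± 0.18, adjusted p = 0.00556). C3 was at 159%, C4b at 100.4% and C3ar1 at 5.70% of the 2-week MHCII-high mean. The complement receptor genes Itgam and C3ar1 were called at 1.75 and 1.69, with adjusted p of 0.311 and 0.109 without control replicate 3, and C3 had up to 0.0912 without control replicate 3.

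**Figure D4:**
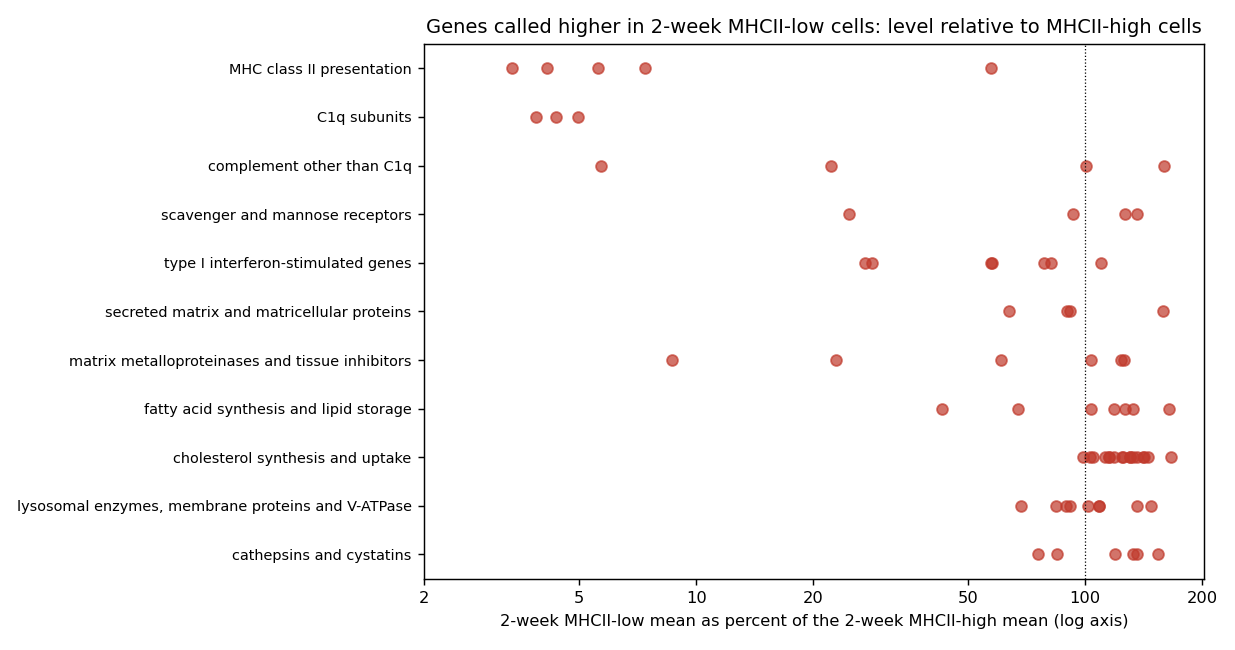
Each point is 1 gene called higher, placed by its 2-week MHCII-low mean as a percent of its 2-week MHCII-high mean on a log axis, in rows by list. C1q and 4 of 5 MHCII genes lie under 10%, and the 17 cholesterol genes plotted between 98.6% and 166%.

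Receptors for antibody and modified lipoprotein rose in part. Fcgr2b, the inhibitory Fc gamma receptor, was read at 3571, 3344 and 4287 against 614 and 367 (log2 fold change 2.97 ± 0.24, adjusted p = 2.87e-07) and Fcgr3 at 6155, 4662 and 5556 against 3287 and 2390 (0.95 ± 0.20, adjusted p = 0.00992), 2 of 6 Fc gamma receptor genes tested. Of 10 scavenger and mannose receptors, 4 were called higher and none lower, and all 10 were above 0. Over all genes tested, 1.75% were called higher and 46.1% were above 0. Msr1, scavenger receptor A, was read at 20459, 17016 and 11185 against 4308 and 5604 (1.68 ± 0.25, adjusted p = 0.000522). Colec12, Scarb1 and Cd68 were called at 2.22, 1.15 and 0.88. Fcgr2b and Msr1 passed in every leave-one-out fit, while Fcgr3, Colec12 and Scarb1 had an adjusted p of 0.297, 0.171 and 0.325 without control replicate 3, which left 1 of 10 scavenger receptors called.

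Cytokine, chemokine and growth factor genes gave few calls. Cxcl16, a membrane-bound chemokine that also takes up oxidized LDL, was the single call of 11 CXC ligands, at 651, 459 and 832 against 197 and 105 (log2 fold change 2.12 ± 0.31, adjusted p = 0.000411). No CC chemokine ligand of 6 tested was called by limma or by edgeR (2 at an unadjusted p under 0.05, and 1 call by DESeq2, by limma voom, by limma on the 5 libraries compared and without control replicate 3). Of 11 profibrotic growth factors, Igf1 alone was called (5652, 5651 and 5335 against 2914 and 3244, 0.85 ± 0.22, adjusted p = 0.0436), and it missed the threshold in each of the 5 fits that left out 1 library (up to 0.327 without control replicate 1). Tgfb1 and Pdgfb were not called (0.37 ± 0.22 and -0.26 ± 0.53).

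Signalling genes of colony-stimulating factors gave 4 calls of 12, all higher, against 1.75% of all genes tested. Socs3, the feedback inhibitor of interleukin-6 family receptors, was read at 776, 1207 and 1599 against 148 and 300 (log2 fold change 2.44 ± 0.35, adjusted p = 0.000319) and passed every leave-one-out fit. Csf2rb, the common beta chain of the GM-CSF receptor, its close copy Csf2rb2, and Csf1r, the M-CSF receptor, were higher by 0.82, 0.63 and 0.77, with adjusted p of 0.00995, 0.0277 and 0.0207, and of 0.132, 0.264 and 0.326 without control replicate 1. Reads of Csf2rb and Csf2rb2 may be split between these near-identical genes. Of 28 glycolysis and pentose phosphate genes, Aldoc, an aldolase (6659, 5586 and 7038 against 1376 and 1377, 2.22 ± 0.20, adjusted p = 1.02e-06), and Slc2a1, the glucose transporter GLUT1 (1146, 1529 and 2177 against 370 and 330, 2.16 ± 0.26, adjusted p = 4.12e-05), were called higher, and 23 of the 28 were above 0. The share above 0 over all genes tested was 46.1%.

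Calls among interferon-stimulated genes depended on single libraries. Of 39 tested, 7 were called higher and none lower, 33 were above 0 and the median was 0.678. The shares over all genes tested were 1.75% called higher and 46.1% above 0. Oas2, an RNA sensor, was read at 385, 602 and 769 against 82.2 and 114 (log2 fold change 2.52 ± 0.45, adjusted p = 0.00265), and Slfn5 at 926, 791 and 1364 against 228 and 296 (1.94 ± 0.34, adjusted p = 0.00223). Ifi44, Ifi27l2a, Oas3, Oas1g and Lgals3bp were called at 2.45, 2.28, 2.68, 3.11 and 0.80, and Isg15, Ifit3 and Irf7 were not. No member was called without control replicate 1 (Oas2 then had an adjusted p of 0.0676 and Slfn5 of 0.0631), and 2 to 4 were called without any other single library. Oas1g belongs to a cluster of near-identical genes among which the counting could split reads.

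Oas3 is shown because its promoter carries the interferon-stimulated response element core GAAANNGAA at 2 overlapping places, in capitals (150 bases before the start, RefSeq, GRCm38.p6).
Oas3, chr5:120777660-120777809, - strand: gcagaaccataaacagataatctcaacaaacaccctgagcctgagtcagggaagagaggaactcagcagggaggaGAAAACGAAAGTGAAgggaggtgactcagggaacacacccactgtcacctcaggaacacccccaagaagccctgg
The letters occurred on either strand in 16 of the 28 listed genes with an entry, in 4 of the 5 such genes called higher, and in 9.76% of all genes in the table (8.56% of promoters). They occurred in 8.82% of the tested genes matched and in 12.63% of the matched genes called higher. For the 10 lysosomal genes called, 9 had an entry, and TCACGTGA, the core of the CLEAR element that TFEB reads, occurred in 1 of them, Atp6v1a. It occurred in 4 of the 36 listed lysosomal genes with an entry and in 1.12% of all genes (0.97% of promoters). The share was 2.03% of the tested genes matched and 1.58% of the matched genes called higher.

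Among the decreases, 4 passed in every fit that left out 1 library: Abca1, given above, Dnah11, Ppp1r9a and Gabbr1. Dnah11, an axonemal dynein heavy chain best known from cilia, was read at 398, 662 and 378 against 2262 and 3125 (log2 fold change -2.52 ± 0.38, adjusted p = 0.000472). Ppp1r9a, neurabin, an actin-binding protein, was read at 1000, 982 and 731 against 3075 and 3704 (-1.91 ± 0.24, adjusted p = 5.84e-05), and Gabbr1, a subunit of the GABA-B receptor, at 738, 930 and 706 against 2739 and 2912 (-1.84 ± 0.30, adjusted p = 0.00142). Dnah11 was the single call of the ciliated cell list (9 tested, 7 of 9 below 0, summed level 1530 to 1701 in treated and 3339 and 4501 in control libraries), and the defining regulator Foxj1 was not called (78.3, 54.1 and 18.2 against 35.1 and 82.6). Whether ciliated cells had a part in it was not tested. At 4 weeks Dnah11 was read at 2372, 1424 and 1246 in MHCII-low cells.

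Each further large decrease missed the threshold with at least 1 library left out. Tlr5, the flagellin receptor, was read at 400, 409 and 283 against 1906 and 1606 (log2 fold change -2.28 ± 0.41, adjusted p = 0.00274, and 0.0683 without control replicate 1). It was the single decrease of 18 Toll-like receptor genes, where the co-receptor Cd14 and Tlr13 were called higher by 0.92 and 0.91. The calls of Cd14 and Tlr13 were lost when either control library was left out. Icosl, the ligand of the T cell costimulator ICOS, was lower by -1.37 ± 0.23 (658, 895 and 722 against 1814 and 2095, adjusted p = 0.00206, and 0.0664 without control replicate 3). The giant genes Ttn and Hmcn1, the matrix protein Svep1 and the protease Pappa fell by 3.18, 3.40, 1.94 and 2.17 on the log2 scale, with adjusted p up to 0.256, 0.155, 0.325 and 0.39 with 1 library left out. Adra2a, Qpct, Atp2b4, Polg2 and Trp53i11 complete the 15 largest decreases, at -2.64 to -1.79, and each missed the threshold without control replicate 3.

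Called genes differed in kind by direction. Of the 70 decreases, 52 were protein-coding (74.3%), against 99.6% of the 263 increases and 84.5% of the genes tested. Exon length was at least 10000 bases for 24.3% of the decreases, 8.4% of the increases and 5.5% of the genes tested, and the median exon length was 5421, 3883 and 3458 bases. Median GC content was 44.4% for decreases, 47.32% for increases and 45.89% for the genes tested. With a per-library GC trend removed, 288 genes were called higher and 84 lower. The median level in controls was near 1077 normalized counts for the decreases and 1030 for the increases.

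The heat shock list had 2 decreases of 19 tested, beside 0.466% of all genes tested. They were the inducible HSP70 genes Hspa1a (152, 362 and 142 against 1480 and 1839) and Hspa1b (82.8, 78.0 and 47.9 against 667 and 929). Their log2 fold changes were -3.05 ± 0.64 and -3.52 ± 0.74 (adjusted p = 0.0112 and 0.0108). They are neighbours with near-identical sequence, so their reads may be split between them. Their 4-week MHCII-low levels (127, 76.5 and 369 for Hspa1a) were as low as at 2 weeks. With 1 library left out, Hspa1a missed the threshold in 4 of the 5 fits, all but the one without bleomycin replicate 2, and Hspa1b in 3, without bleomycin replicate 3 or either control. Their adjusted p then rose to 0.171 and 0.195.

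Cell cycle genes gave no call in the fit of all 14 libraries. Of 39 tested, that limma fit and edgeR called 0, and 11 had an unadjusted p under 0.05. DESeq2 called 2 lower, and limma called 6 lower on the 8 MHCII-low libraries alone, 3 on the 5 libraries compared, 2 under library totals and 1 with a replicate block. Of the 39, 37 had a log2 fold change below 0, with a median of -0.64 against -0.055 for all genes. Mki67, a marker of dividing cells, was read at 5162, 7145 and 6196 against 11128 and 9617 (-0.76 ± 0.31, adjusted p = 0.254), and Top2a, a topoisomerase of S and G2 phase, at 1123, 1896 and 1748 against 3306 and 3478 (-1.13 ± 0.35, adjusted p = 0.105). The groups did not overlap for 27 of the 39 genes, and for 37.0% of all genes tested. None of the 75 tested nuclear-encoded respiratory chain genes was called by limma or edgeR (9 at an unadjusted p under 0.05, 1 called by DESeq2, by limma voom, with a replicate block and without bleomycin replicate 2), and 65 of them were above 0. A log2 fold change above 0 was found for 46.1% of all genes tested. Neither limma, edgeR nor DESeq2 called any of 16 unfolded protein response genes (5 at an unadjusted p under 0.05).

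Other function lists gave few calls, and nearly all of them were lost in some fit that left out 1 library. Of all genes tested, 1.75% were called higher and 0.466% lower. Of 11 chemokine and chemoattractant receptors, 4 were called higher (among them Cxcr2, Ccr1 and Cmklr1, at log2 fold changes of 2.36, 1.38 and 3.29), and none of the 4 without control replicate 3. Of 12 C-type lectin receptors, Clec4n (1.13) and Clec5a (1.38) were called, and none without control replicate 1. Of 21 integrin subunits, Itgb5 (1.15), Itgam (1.75) and Itga5 (0.86) were called, and Itgb5 was also the 1 call of 12 genes of apoptotic cell uptake. Ptgs1, cyclooxygenase 1, was the 1 call of 19 prostaglandin and leukotriene genes (10290, 8776 and 12836 against 2493 and 5566, adjusted p = 0.00322, and 0.187 without control replicate 1). The single calls of other lists were H2-K1 of 19 MHC class I genes (0.92), Il4ra of 14 alternative activation genes (0.89), Fth1 of 19 iron genes (1.17), Slc7a11 of 23 NRF2 genes (1.43), Zmat3 of 29 p53 genes (0.76) and Ms4a6c of 9 Tmem176 and Ms4a genes (2.16). With 1 library left out, their adjusted p rose to 0.286, 0.183, 0.256, 0.264, 0.372 and 0.198. Of 18 macrophage transcription factors 2 were called, among them Tfec (0.71, up to 0.237). Socs3 was the 1 call of 28 immediate early genes, Lrg1 that of 15 TGF-beta genes and Lif that of 23 inflammatory cytokine genes. Icosl was the 1 decrease of 9 T cell costimulatory ligands and Gbp8 that of 12 interferon-gamma-induced genes (-1.47, adjusted p = 0.0488, and up to 0.424), and neither of 2 eosinophil-associated ribonucleases was called.

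Markers of macrophage origin moved unevenly. Of 24 resident alveolar macrophage markers, 4 were called higher (Ctsk, F7, Cdh1 and Car4) and 1 lower (Fabp1), with a median of 0.205. The shares over all genes tested were 1.75% called higher and 0.466% called lower. The calls of Cdh1, Car4 and Fabp1 were each lost in at least 1 fit that left out 1 library. F7, coagulation factor VII, was read at 7155, 5059 and 6019 against 2663 and 2125 (log2 fold change 1.34 ± 0.19, adjusted p = 0.000287). Of 22 tested markers of monocyte-derived or interstitial macrophages, 8 were called higher (among them Apoe, C1qa, C1qb, C1qc, Cd14, Itgam and Csf1r) and none lower, with a median of 0.811 and a range of 0.265 to 1.07 over the fits with 1 library left out. The calls of C1qa, Cd14, Itgam and Csf1r were each lost in at least 1 of those fits. Ccr2 (893, 834 and 963 against 726 and 640) and Cx3cr1 (67.1, 121 and 150 against 106 and 61.1), the chemokine receptors of recruited monocytes, were not called. The summed level of the list was 51899 to 58341 in treated and 38449 and 40500 in control libraries.

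Markers of other lung cells were detected at levels that varied between libraries. Sftpc, surfactant protein C of alveolar type 2 cells, was called higher (1763, 505 and 874 against 169 and 39.6, adjusted p = 0.00242, and 0.133 without control replicate 3), with Lyz1 and Slc34a2, but Sftpb (698, 357 and 315 against 552 and 684) was not. The calls of Lyz1 and Slc34a2 were also lost without control replicate 3. The type 2 list as a whole summed to 7155 to 10283 in treated and 6500 and 6562 in control libraries. Type 1 cell markers summed to 15825 to 18567 against 6835 and 8300, with Cav1 and Pdpn called higher and Ager not. The calls of Cav1 and Pdpn were lost without control replicate 1. Vwf was the 1 call of 11 endothelial markers (1.10 ± 0.25, adjusted p = 0.0185, and up to 0.264 with 1 library left out), and Fn1 the 1 call of 9 classical monocyte markers. No club cell marker of 6 tested was called (2 were lower on the 8 MHCII-low libraries alone and on the 5 compared), and their sum was 3251 to 10851 against 12818 and 25850. No dendritic, B, T, eosinophil, mast, fibroblast, erythroid, platelet or mesothelial marker passed the threshold in the fit of all libraries (with the 5 compared, 1 dendritic and 2 fibroblast markers were higher, and by DESeq2 1 mesothelial marker), and the mast cell genes Mcpt4, Tpsb2 and Cma1 and the eosinophil genes Prg2 and Prg3 were at 0 in all 5 libraries. Their part in the results was not tested.

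**Figure D5:**
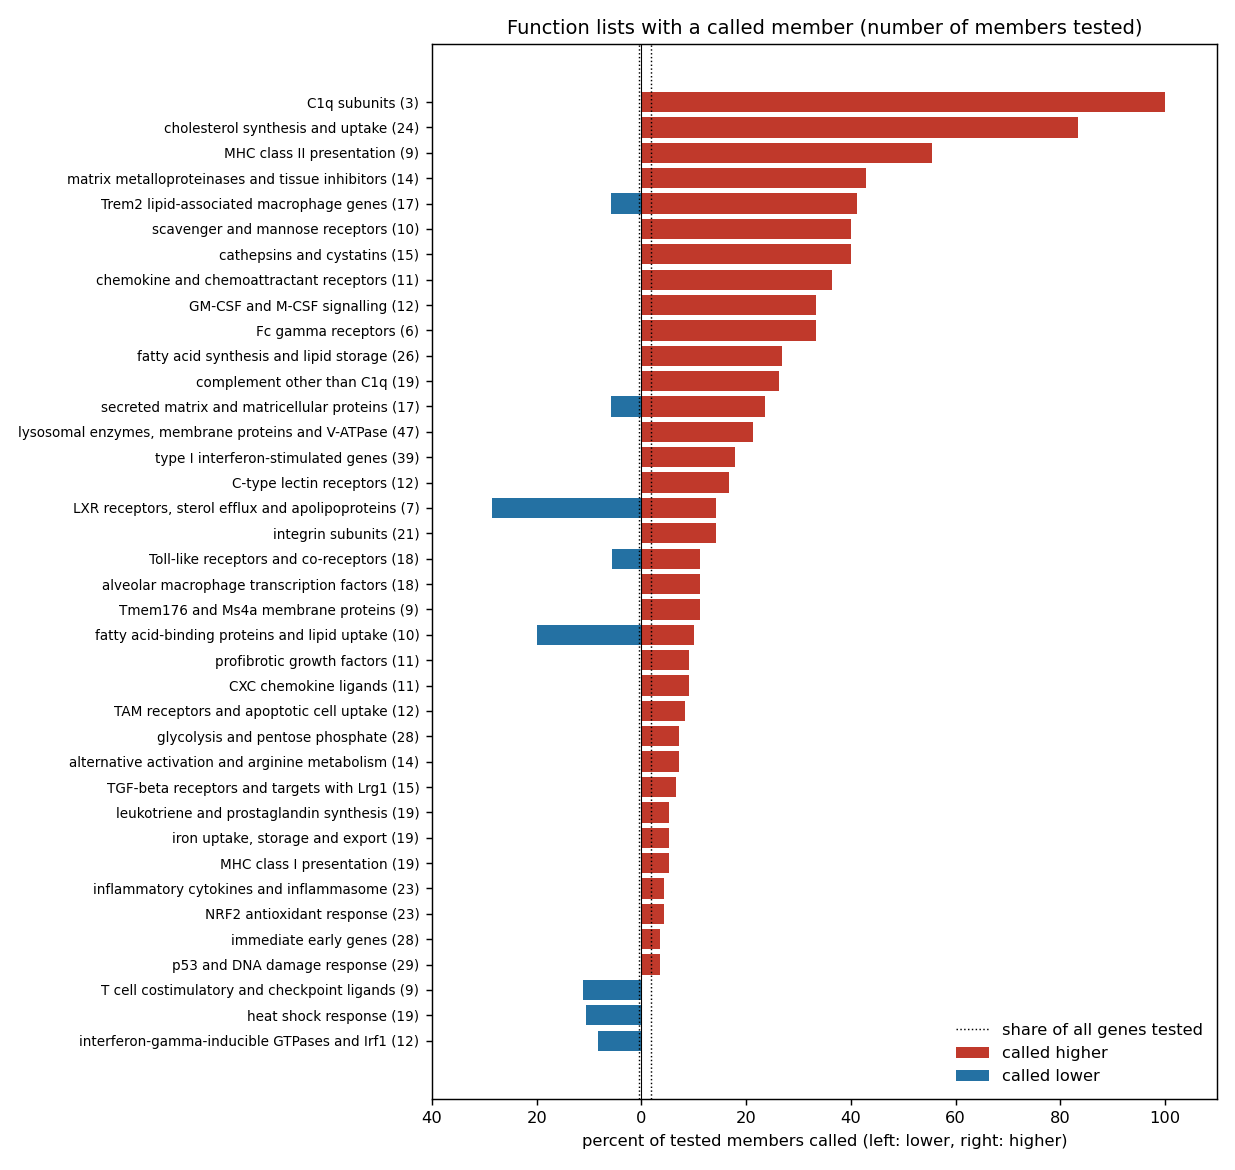
Bars give the percent of tested members called higher (right) and lower (left) at a limma adjusted p under 0.05 for each function list with a call, with the number tested in brackets; dotted lines mark 1.75% and 0.466%, the shares over all 15024 genes. C1q (3 of 3) and cholesterol synthesis and uptake (20 of 24) have the longest bars.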

How the data were processed

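RNA-seq libraries of sorted lung cells were compared from 1 deposited table. Its per-library values are normalized counts, a signal the authors made from gene counts, per the file headers; the submitters' processing notes name STAR, DESeq2 and mm10, with no role given for each. The GC percent and exon length columns are as deposited by the authors. Values are whole multiples of 1 step per library (0.39 to 2.24 normalized counts), rounded to 1 decimal. Division by the step recovered reads for the count tests, within the 0.05 that rounding allows for 99.91% to 99.97% of values in the 5 libraries; in control replicate 1, 78.3% were whole within 0.1 of a step. At 10 normalized counts the shallowest library compared has 4.47 reads. No molecular identifiers are described in the labels.

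Since the values are not raw counts, the main test was limma 3.58.1 with a mean-variance trend (R 4.3.3) on log2(value + 1), which understates changes of low genes. All 14 libraries entered 1 fit with 5 groups. Its 19.4 degrees of freedom per gene are the residual ones plus those limma adds by sharing spread across genes. The p-values were adjusted by Benjamini-Hochberg over the 15024 genes, with a threshold of 0.05. All adjusted p-values are from this limma fit unless edgeR 4.0.16, DESeq2 1.42.0 or voom is named. Values after ± are SE. The test was checked on simulated data.

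Named were the 15 largest increases and decreases called with a mean of at least 100 and no overlap (skipping unnamed models), all MHCII and sort marker genes, and called members and up to 4 members with the smallest p of 62 lists, 44 of function and 18 of markers (1008 genes, 880 tested). Members and lists were chosen with earlier results of these data known. Results for some genes are not reported here, and these are left out of the figures' gene panels; counts over lists include them. No gene set test was made. Alternatives left out each library, fitted the 5 compared or the 8 MHCII-low libraries, used DESeq2, edgeR, voom, TMM, library totals, a GC trend, the mitochondrial ribosomal RNA share, other pseudocounts or filters, or a replicate block. Between replicates the chi-square per gene was far above sampling noise (at least 89.67), so none was merged. By the measures below, which take in mitochondrial ribosomal RNA, bleomycin replicate 2 was about as like the controls as its own group. Its Spearman correlation was 0.97 and 0.976 with bleomycin replicates 1 and 3, and 0.97 and 0.956 with control replicates 1 and 3. Its chi-square per gene was 175.5 and 99.24 with the former, and 140.4 and 98.04 with the latter. Mitochondrial ribosomal RNA was 18.3% of its reads. The share was 3.42% and 12.7% in bleomycin replicates 1 and 3, and 21.7% and 24.1% in the controls. The part of this RNA in the chi-square was not tested.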

Additional observations from a re-analysis of the deposited data

How the results depend on the processing

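All 333 calls kept their direction in every alternative that tested them. As none overlapped between the groups, this was fixed in advance for fits with fewer libraries or another pseudocount or filter. The fit of all 14 libraries called 333 genes, 263 higher and 70 lower. The 8 MHCII-low libraries alone called 525 (221 lower) and the 5 libraries compared called 181 lower. DESeq2 called 660 (461 higher, 199 lower), and the mitochondrial ribosomal RNA share as a covariate 212 (34 lower). Library totals called 164 higher and 140 lower, and no filter 147 lower. Leaving out 1 library gave 126 to 316 calls, 117 to 243 higher and 9 to 73 lower. The replicate block called 432 genes (107 lower), and with the 5 libraries only 322 (109 lower). The share of calls that were higher was 79.0% in the fit of all 14, 61.7% with the 5 libraries, 57.9% with the 8, 58.4% with no filter, 66.1% with the block and 5 libraries, 89.0% without control replicate 1 and 92.9% without control replicate 3. The cause was not tested. Of 147 named genes called, 47 passed under every alternative. As a count chosen after seeing the data, cholesterol genes called ranged from 15 of 24 (without control replicate 3) to 21 of 24. Same-numbered treated and control libraries had correlations of 0 and -0.038 between their deviations from the group means, a weak check since the deviations of 2 controls mirror each other. Same-numbered MHCII-low and MHCII-high libraries had 0.136, 0.095 and 0.014 at 2 weeks and 0.021, 0.028 and 0.02 at 4 weeks. Each library correlated best with its own number at 4 weeks, but MHCII-low replicate 3 did not at 2 weeks, and the numbers were not taken to pair samples. Depth limits low genes, and leaving out 1 of the 2 controls left 136 or 126 calls.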

Other observations

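A gene listed under a date-like symbol (1-Mar) is March1 by its identifier, ENSMUSG00000036469. It encodes the ubiquitin ligase that takes MHCII from the cell surface and was chosen after its values were seen. It was read at 4390, 5190 and 4572 normalized counts after bleomycin and at 2634 and 2549 in controls, a log2 fold change of 0.86 ± 0.19 (limma adjusted p = 0.0184, and up to 0.197 with 1 library left out). Its mean was 97.3% of the 2-week MHCII-high mean. The related genes March8, another MHCII ligase (0.36 ± 0.19), and March6, a ligase of sterol enzyme turnover (0.45 ± 0.21), were not called (adjusted p = 0.42 and 0.356).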
